A study of Mus musculus with 30 samples.

Results

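The regions described here are 359 ATAC-seq peaks that were open in epiblast stem cells (EpiSCs) of the PWK/PhJ mouse strain and held almost no reads in EpiSCs of C57BL/6 (B6). They were chosen from a peak table of 181059 regions, of which 176428 lie on chromosomes 1 to 19. A peak was taken when each of the 4 B6 libraries had at most 3 counts and both PWK libraries reached at least 1.5 CPM (the count scaled to the library's sum over all peaks), on an autosome. The members are thus 0.203% of the autosomal peaks and 0.387% of the 92791 autosomal peaks that were open, at 1.5 CPM or more, in both PWK libraries. Because the rule used the PWK and B6 accessibility, those values are given below as a description with no test. The state in DBA cells, the position in the genome, the state in B6 endoderm and the RNA of neighbouring genes were not used by the rule.

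All EpiSC lines were untreated, at passages p5-p10, and grown on feeders in a medium holding Fgf2, Activin and a tankyrase inhibitor that blocks Wnt signalling. ATAC-seq covered B6 replicates 1, 4, 44 and 51, the PWK replicate BioRep698, a second PWK library and 1 library of DBA/2J. The column of the second PWK library carries no replicate number of the labels, so it is called unnumbered. RNA-seq covered 5 B6, 3 PWK, 3 B6.129 F1 libraries (called B6129F1, a cross of B6 with 129) and 1 DBA library. A PWK RNA library is called unnumbered for the same reason. Its column has another name than the unnumbered ATAC-seq library, so both are not taken as the same replicate. In a second peak table the B6 EpiSCs stood beside 4 libraries of definitive endoderm (DE) made from B6 EpiSCs. The labels do not say that libraries of 1 strain came from separate animals, so p-values measure only the spread between these samples.

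EpiSCs are a primed form of pluripotent cell that resembles the epiblast after implantation. ATAC-seq cuts DNA with a transposase where nucleosomes leave it free, so open peaks mark active promoters, enhancers and insulators. B6 and DBA are classical laboratory strains, mostly of Mus musculus domesticus ancestry, and B6 is the strain of the mouse reference genome. PWK is an inbred strain derived from wild Mus musculus musculus and differs from the reference at many more bases and structural variants.

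1 member reached into the window of a RefSeq promoter (250 bases before to 50 after a gene's start), and its sequence is shown because it is the member whose letters lie at a start site. The member is chr9:89066640-89066716, 113 bp from the start site of the non-coding RNA Gm24463. The window is chr9:89066579-89066878, on the + strand of GRCm38.p6. Capitals mark the 77 bases the peak covers, bases 62 to 138 of the window, and the letters are those of the B6 reference, not of PWK.
Gm24463 promoter: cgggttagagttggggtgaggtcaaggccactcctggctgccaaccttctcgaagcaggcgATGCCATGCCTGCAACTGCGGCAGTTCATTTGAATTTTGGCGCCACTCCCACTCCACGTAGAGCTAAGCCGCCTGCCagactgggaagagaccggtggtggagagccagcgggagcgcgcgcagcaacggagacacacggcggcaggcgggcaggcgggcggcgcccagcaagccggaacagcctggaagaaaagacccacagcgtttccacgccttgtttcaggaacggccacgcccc
The window has a GC content of 64.3%. Of 10 short motifs searched on both strands, the E-box CANNTG occurred at 2 places, both in the part the peak covers, and 72.3% of 32851 RefSeq promoters of the same length hold it. The KLF/SP motif GGGCGG occurred at 1 place outside the peak, against 35.7% of all promoters. The other 8 (octamer, SOX, TEAD, AP-1, CCAAT, ZIC, GATA and forkhead) had no match. The sequences of the other members are not analysed here.

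Most members were weak peaks, and a few were among the strong peaks of PWK cells. In PWK BioRep698 the members had 1.58 to 138 CPM with a median of 3.16, and in the unnumbered PWK library 1.55 to 101 CPM with a median of 2.63. By the smaller of both PWK values, 119 members lay from 1.5 to under 2 CPM, 137 from 2 to under 3, 63 from 3 to under 5, 30 from 5 to under 10, and 10 at 10 or more. In counts this was a median of 18.0 reads in PWK BioRep698 and 22.0 in the unnumbered library. In the B6 libraries the median member had 0 or 1 count. Only 32 members had 0 counts in every B6 library, and 270 had at most 2 counts in each. The log2 ratio of the unnumbered PWK library to BioRep698 had a median of -0.23 over the members, with quartiles of -0.63 and 0.19. Over all autosomal peaks open in both PWK libraries the median of this ratio was -0.06. Because the rule required 1.5 CPM in both PWK libraries, the ratio cannot show how well they agree. A further 893 autosomal peaks met the B6 limit but were open in only 1 PWK library.

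**Figure D1:**
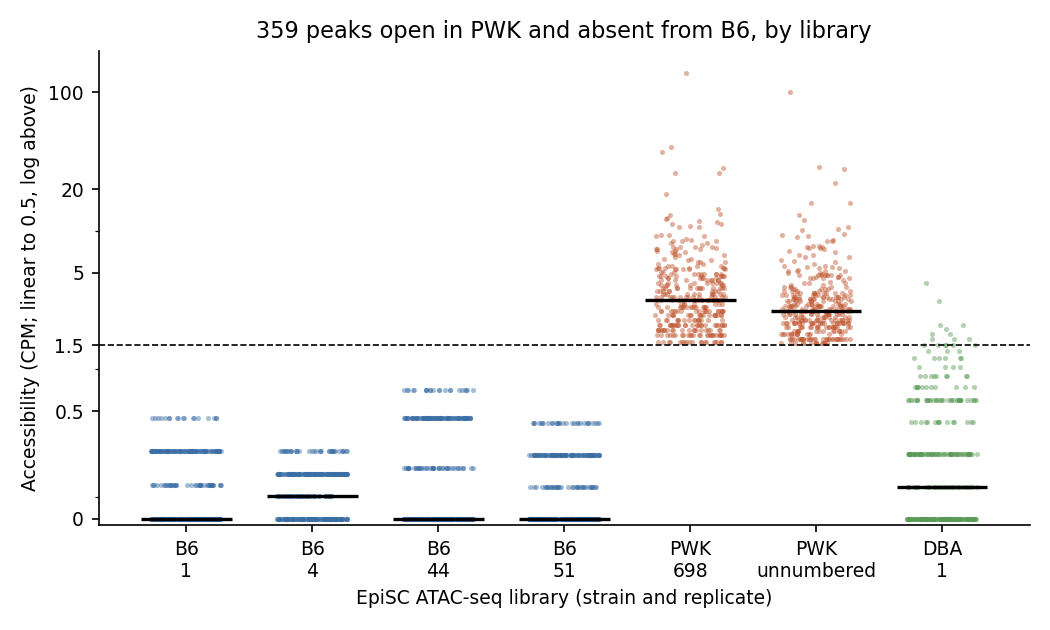
Accessibility in CPM (linear up to 0.5, logarithmic above) of the 359 members in each of 7 EpiSC ATAC-seq libraries, 1 point per member, with the median as a black line and the 1.5 CPM minimum dashed. The B6 and PWK values are set apart by the rule, whereas the DBA library, which the rule did not use, has a median of 0.150 CPM and 10 members at 1.5 CPM or more.

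The member with the most reads was chr4:80003389-80003540, 151 bp wide. It had 786 counts in PWK BioRep698 and 850 in the unnumbered PWK library, and 0 counts in all 4 B6 libraries and in DBA. Its smaller PWK value of 101 CPM placed it at rank 106 among the autosomal peaks ordered in the same way, and it alone held 7.93% of the members' PWK counts. With 3 counts in the shallowest B6 library (0.705 CPM) as the floor, this is at least 144-fold above B6. No gene lay within 10 kb. A broader peak ended 99 bp before it, chr4:80002400-80003290, with 936 and 963 PWK counts. That peak had 6, 8, 8 and 2 counts in B6 1, 4, 44 and 51 and 14 in DBA, so it fell outside the rule by its B6 counts, while its PWK levels were 164 and 115 CPM. On the other side a peak 359 bp away had 0 counts in both PWK libraries and 2, 0, 0 and 2 in B6 1, 4, 44 and 51. One more peak 528 bp away had 48 and 66 PWK counts, at most 4 in each B6 library and 0 in DBA.

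The next members by PWK level were spread over other chromosomes. The peak chr14:42543401-42543709 had 212 and 244 counts in PWK BioRep698 and unnumbered, and 0 in DBA. The 72-bp peak chr11:44387190-44387262 had 230 and 236 PWK counts and 0 in DBA, and lay 12801 bp from the start site of Il12b, which encodes the p40 chain of interleukins 12 and 23. The peak chr13:93757570-93757665 had 161 and 186 PWK counts and 4 in DBA. It lay inside the non-coding gene Gm41021, near Dmgdh, which encodes a mitochondrial enzyme of choline breakdown. These 3 peaks had at most 2 counts in any B6 library.

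Of the other 6 members at 10 CPM or more, 4 lay within 10 kb of a gene of the RNA table. The peak chr14:21016130-21016212, with 148 and 132 PWK counts, was inside Vcl, the gene of the focal adhesion protein vinculin. The peak chr7:28206291-28206468, with 75 and 100 PWK counts, was near the kinase gene Dyrk1b. The peak chr7:19127057-19127208, with 106 and 89 PWK counts, was inside Fbxo46, an F-box gene. The peak chr7:5024887-5025045, with 66 and 87 PWK counts, was inside the zinc finger gene Zfp865. DBA had 4 counts at the Dyrk1b peak and 0 at the other 3. The remaining peaks were chr1:40049207-40049415, with 149 and 134 PWK counts and 10 in DBA, and chr3:141282294-141282504, with 82 and 109 and 0 in DBA.

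The threshold cut through a continuous range. Just inside it, chr10:110822640-110822721 had 10 and 13 PWK counts (1.76 and 1.55 CPM) and 2 to 3 counts in each B6 library. Just outside it, chr9:64778306-64778390 had 10 and 12 PWK counts (1.76 and 1.43 CPM) and at most 2 in B6. A further 332 autosomal peaks open in both PWK libraries had 4 as their highest B6 count, and some of these were stronger than any member. The strongest was chr10:96077527-96077888, with 3310 and 3340 PWK counts (581 and 399 CPM), 2 to 4 counts in each B6 library and 0 in DBA. The next, chr12:97061431-97061791, had 2282 and 2260 PWK counts, at most 4 in B6 and 2 in DBA. The members therefore do not hold all of the largest differences between both strains.

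In the single DBA library most members were closed as well. At 1.5 CPM or more, which is about 10.0 counts at the depth of that library, 10 of 359 members were open (2.79%, 95% Clopper-Pearson interval 1.34 to 5.06, which covers counting error over peaks only). A further 275 members (76.6%) had at most 3 counts, among them 154 (42.9%) at 0, and 74 (20.6%) lay between. The DBA median was 0.150 CPM and the highest value 4.19. The members' mean level was 0.326 CPM in DBA, 0.125 to 0.198 in the B6 libraries, and 4.61 and 3.72 in PWK. DBA stood just above the B6 range, which the rule holds down, and far below PWK.

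Peak sets not held to the low B6 limit had a far larger share open in DBA. Of all 176428 autosomal peaks, 55.3% were open in DBA, and of those open in both PWK libraries 81.1%. In the mirrored set, 883 autosomal peaks that were open in all 4 B6 libraries and had at most 3 counts in both PWK libraries, 789 (89.4%) were open in DBA and 15 (1.70%) had at most 3 counts. Peaks that met the B6 limit but were open in only 1 PWK library numbered 893. Of them, 10 (1.12%) were open in DBA and 758 (84.9%) had at most 3 counts. These shares are of the same order as those of the members. How far the gap to the other sets follows from the choice on B6 was not tested. With 1 DBA library these shares have no test. The mirrored set is bound by 4 open B6 libraries against 2 for PWK, so the sizes of both sets are not compared.

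**Figure D2:**
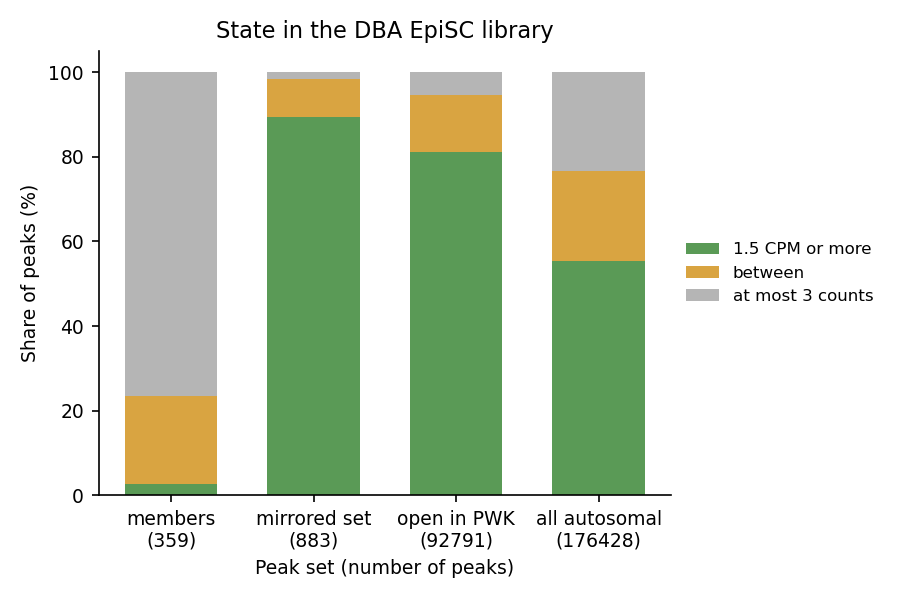
Share of peaks in percent that had 1.5 CPM or more, at most 3 counts or a value between in the DBA EpiSC library, for the members, the mirrored set of B6 peaks absent from PWK, the peaks open in both PWK libraries and all autosomal peaks. The open share is 2.79% for the members and 89.4% for the mirrored set. Peaks with the same B6 limit but open in only 1 PWK library (1.12% open in DBA) are not drawn.

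The 10 members open in DBA were not the strongest in PWK. The highest DBA value was at chr10:8551760-8551862, with 28 counts (4.19 CPM, 95% Poisson interval 2.78 to 6.06) against 14 and 15 counts in PWK (2.46 and 1.79 CPM). The next was chr1:13611659-13611787, with 21 DBA counts (3.14 CPM, 1.95 to 4.80), 48 and 42 PWK counts and 0 in every B6 library. The peaks chr7:23359893-23360005, inside the oocyte gene Nlrp4e, and chr8:3843064-3843203, near Cd209e, each had 14 DBA counts (2.10 CPM, 1.15 to 3.52). The fifth, chr7:98400572-98400652, had 13 (1.95 CPM, 1.04 to 3.33). In 3 of these 5 the lower bound lay under 1.5 CPM, and another 6 members had exactly 10 DBA counts, just short of the minimum. Among the 103 members at 3 CPM or more in both PWK libraries, 2 (1.94%) were open in DBA and 50 (48.5%) had 0 counts there, against 8 of 256 (3.12%) and 104 (40.6%) among the weaker members.

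**Figure D3:**
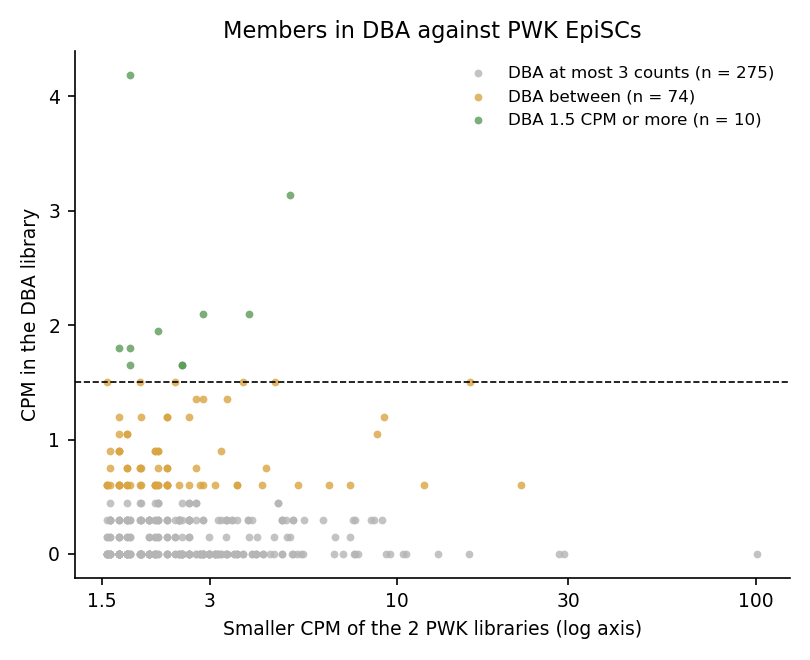
CPM in the DBA library against the smaller CPM of both PWK libraries (log axis) for the 359 members, coloured by their DBA state, with the 1.5 CPM minimum dashed. The 10 open members all lie at or below 5.01 CPM in PWK, and the member at 101 CPM in PWK has 0 in DBA.

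The library that decided the DBA share was B6 replicate 44, the shallowest of the ATAC-seq set (4256551 counts). When it was left out of the rule, 118 peaks were added and 49 of these (41.5%) were open in DBA, which raised the share to 12.4%. The share was 4.77% without B6 4, 4.57% without B6 51 and 1.43% without PWK BioRep698. In those 118 peaks the median count was 5 in B6 44, 1 in B6 1 and B6 4, 0 in B6 51, 19 and 25 in PWK BioRep698 and unnumbered, and 6 in DBA. DBA thus had reads at many of the peaks where, among the B6 libraries, B6 44 alone passed the limit.

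The members were short and lay away from gene starts. Their median width was 94 bp (69 to 308), against 130 bp for all autosomal peaks, 172 bp for peaks open in both PWK libraries and 147 bp for the mirrored set. Of the 346 members on chromosomes with a table of start sites, 10 (2.89%) lay within 1 kb of a start site, against 13.3% of all autosomal peaks, 19.9% of peaks open in both PWK libraries and 5.29% of the mirrored set. Beyond 10 kb of any start site lay 81.5% of the members and 66.7% of all autosomal peaks. Inside a gene span lay 190 members (52.9%), against 61.3% of all autosomal peaks and 46.7% of the mirrored set. Of these, 152 were inside a protein-coding gene, 8 inside a pseudogene and 30 inside a long non-coding RNA gene but no protein-coding gene. The pseudogene and non-coding RNA classes overlap, as at the members inside the pseudogene Gm14412. Within 2 kb of a gene end lay 14.8% of members and 25.7% of all autosomal peaks. None of these shares is matched for signal.

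**Figure D4:**
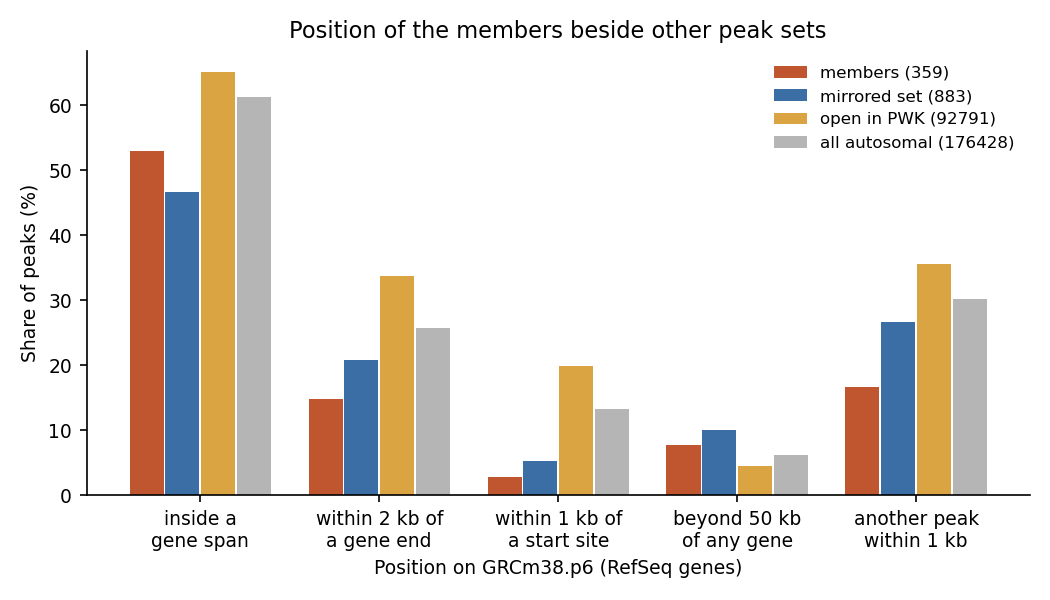
Share of peaks in percent in 5 kinds of position relative to RefSeq genes on GRCm38.p6, for the members, the mirrored set, the peaks open in both PWK libraries and all autosomal peaks. Members and the mirrored set are both rarer within 1 kb of a start site (2.89% and 5.29%) than all autosomal peaks (13.3%).

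The members were scattered over all 19 autosomes. Counts per chromosome ran from 7 on chromosome 19 to 31 on chromosome 5, and the share of a chromosome's peaks ran from 0.118% on chromosome 13 to 0.353% on chromosome 16. Another member lay within 10 kb for 9 members and within 100 kb for 23. The tightest group was 3 peaks inside Crebbp, the gene of a histone acetyltransferase and coactivator, at chr16:4119121-4119216, chr16:4124644-4124747 and chr16:4125661-4125743, with smaller PWK values of 4.21, 7.55 and 3.51 CPM and 0 DBA counts in each. Another peak of any kind lay within 1 kb of 60 members (16.7%), against 30.2% of all autosomal peaks. In 14 of these 60 the nearest such peak was open in all 4 B6 libraries.

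The peaks around the members were compared in the same way. For 249 members with 5 or more other peaks of at least 1.5 mean CPM within 100 kb, the median log2 difference of PWK from B6 over those flanking peaks (pseudocount 0.5 CPM) had a median of 0.12. It lay from -0.5 to 0.5 for 227 of them (91.2%). All other such peaks, taken singly, had a median of 0.10 with quartiles of -0.32 and 0.46, and 5.97% exceeded 1. A median over 5 or more peaks varies less than a single peak, so both spreads are not compared. The flanking median exceeded 1 for 3 of the 249 members (1.20%). Both members inside the pseudogene Gm14412 on chromosome 2 were among these, with flanking medians of 2.18 and 2.29. Of the 15 other peaks within 100 kb of that pair, 12 (80.0%) had a log2 difference over 1, against the 5.97% of single peaks. The other of the 3 members was chr5:125790381-125790488 inside Tmem132b, with a flanking median of 1.54. Members with fewer flanking peaks are left out of these counts, among them the strongest, chr4:80003389-80003540, whose 2 flanking peaks had a median of 5.01.

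The second peak table holds B6 EpiSCs and B6 DE, and 12 of 359 members (3.34%) overlapped a peak of it by at least 1 bp, 9 of them over at least 50% of their length. Of the 92791 autosomal peaks open in both PWK libraries, which had no B6 limit, 78771 (84.9%) overlapped a peak of it. Because the rule chose members by low counts in the same B6 EpiSCs, their low overlap is in part fixed by the rule and says nothing by itself of DE. None of the 12 reached 1.5 CPM in all 4 DE libraries. The highest was chr17:46991303-46991402 inside Ubr2, whose overlapping peak had 1.31, 3.18, 5.30 and 5.06 CPM in DE 2, 4, 44 and 51 and 0 to 4 counts in the B6 EpiSCs. At chr8:3843064-3843203, one of the members open in DBA, DE 4, 44 and 51 had 2.49, 3.28 and 8.00 CPM, and DE 2, with 8 counts, lay just under the minimum. DE 2, 4, 44 and 51 are labelled as CXCR4-selected cells after differentiation, and PWK DE libraries were not used here.

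RNA of the neighbouring genes was measured in libraries the rule did not use. A gene counted as a neighbour when its span overlapped a member or lay within 10 kb. There were 245 such genes next to 206 members, of which 151, next to 137 members, passed the filter on low counts. In edgeR's quasi-likelihood test over 14822 genes with Benjamini-Hochberg adjustment, called at an adjusted p under 0.05, 20 of the 151 neighbours (13.2%) were higher in PWK than in B6 and 15 (9.93%) were lower. Over all genes tested, 12.0% were higher and 14.5% lower, and over the 13844 autosomal genes with any peak within 10 kb, 11.5% were higher and 14.6% lower. Both shares of the members' neighbours are near that background. The median log2 difference was 0.15 for the neighbours and -0.01 for the genes with any peak, and 116 neighbours were not called. Within 100 kb the neighbours called higher and lower were 88 each, of 629 tested (14%). By an unadjusted p under 0.05, 38 neighbours within 10 kb (25.2%) were higher and 21 (13.9%) lower, against 18.0% and 21.4% of the autosomal genes with any peak within 10 kb. The difference from that background was not tested.

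Next to the 10 strongest members, Vcl differed by -0.12 on the log2 scale (SE 0.13), Dyrk1b by 0.27 (SE 0.21), Fbxo46 by -0.13 (SE 0.23), Zfp865 by -0.04 (SE 0.25), Zfp524 by 0.23 (SE 0.82) and Zfp784 by 0.87 (SE 0.38), and none was called. Only Gm4969, 8526 bp from the peak at Fbxo46, was called, and it was lower in PWK. Crebbp, with 3 members inside it, differed by 0.31 (SE 0.11) at an adjusted p of 0.0675 in edgeR. Neighbours of members at 3 CPM or more counted 7 higher (12.3%) and 9 lower (15.8%) of 57 tested, near the 12.0% and 14.5% of all genes tested.

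Among the neighbours higher in PWK, 13 of 20 changed at least 2-fold, against 890 of all 1781 higher genes. In 13 the member lay inside the gene. The PWK and B6 libraries did not overlap in any of the 20. The same share over all called genes was not counted, so this is not read as a trait of neighbours. The largest rise at a sizeable level was in Inpp5d, which encodes the lipid phosphatase SHIP1, known as a brake on signalling in blood cells. It had 0.652, 0.669, 2.93, 0.954 and 0.434 CPM in B6 51, 44, 2, 4 and 1, and 31.6, 23.3 and 25.2 CPM in PWK BioRep698, BioRep695 and unnumbered. B6129F1 had 1.14 to 1.63 CPM and DBA 10.0. Every PWK library was thus above every other library, with DBA between. The log2 difference was 4.57 (SE 0.51, adjusted p 0.000114 in edgeR). The member, chr1:87624395-87624490, lay 4083 bp inside the start of Inpp5d (chr1:87620312-87720510) with 10 and 25 PWK counts and 0 in every B6 library and in DBA. In DBA the RNA was therefore present at 10.0 CPM with no read in the peak.

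Stap2, the gene of a signal-transducing adaptor that binds STAT proteins, was low in every B6 library and high in every PWK library. It had 1.34 to 1.58 CPM in the 5 B6 libraries with a median of 1.47, and 19.7, 22.4 and 20.3 CPM in PWK BioRep698, BioRep695 and unnumbered. B6129F1 had 0.994 to 2.51 CPM and DBA 2.34, so all other libraries stayed near B6. The log2 difference was 3.83 (SE 0.25, adjusted p 2.16e-06 in edgeR). The member chr17:56000658-56000742 lies inside the gene (chr17:55997074-56008402), 4864 bp from its start site, with 32 and 34 PWK counts, 0 to 3 in B6 and 1 in DBA. Here the peak and the RNA were both low in DBA.

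Tmem132b, a gene of a single-pass membrane protein, had 0.0790 to 0.499 CPM in B6, 4.57, 2.55 and 2.30 in PWK and 0.151 in DBA (log2 difference 3.25, SE 0.58, adjusted p 0.00217 in edgeR). Slc9a9, a sodium-proton exchanger of endosomes, had 0.624 to 1.65 CPM in B6 and 2.45, 2.75 and 3.01 in PWK (log2 difference 1.42, SE 0.31). Its member, chr9:94684625-94684763, was one of the stronger ones with 29 and 50 PWK counts and 0 in DBA. The pseudogenes Gm6483 and Gm14412 differed by 2.80 (SE 0.30) and 2.61 (SE 0.36) on the log2 scale. Gm14412 had 1.54 to 6.82 CPM in B6, 26.7, 28.4 and 32.9 in PWK and 0.529 in DBA, and 2 members lay inside it. Pseudogenes can share reads with near-identical copies, so the values of both are uncertain.

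The other rises were smaller and in genes with a clear level in B6 too. Dab2, the gene of an endocytic adaptor, had 5.80 to 17.3 CPM in B6 and 25.5, 28.4 and 22.4 in PWK (log2 difference 1.26, SE 0.27). In B6 51, 44, 2, 4 and 1 it had 17.3, 11.0, 9.83, 8.95 and 5.80 CPM, and the summed level of 10 fibroblast genes was 6291, 2819, 2712, 2149 and 832 CPM, so both ranked the 5 libraries in the same order. The largest part of the sum in each was Fn1, with 2976, 1424, 1359, 1404 and 596 CPM. Col1a1 had 756, 292, 303, 100 and 8.33 CPM, which puts B6 2 above B6 44. The sum of the 10 genes was 5546 to 6871 in PWK, 659 to 919 in B6129F1 and 3659 in DBA, and none of them was called or at 0 in PWK. The part of feeder RNA in the result was not tested. Cpeb1, which encodes an RNA-binding regulator of poly(A) tails, rose by 0.99 (SE 0.23). Atxn7l3b had 61.2 to 115 CPM in B6 and 166, 192 and 187 in PWK (log2 difference 0.96, SE 0.18), and its member lay 351 bp from the gene, at its start site, with 19 and 14 PWK counts and 0 in DBA.

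Epg5, a gene of autophagy, had 33.6 to 37.2 CPM in B6, 60.4, 57.0 and 53.2 in PWK and 32.3 in DBA (log2 difference 0.65, SE 0.07, adjusted p 5.72e-05 in edgeR). Castor2, which encodes a regulator upstream of mTORC1, rose by 0.57 (SE 0.09). The tumour suppressor Nf1, a brake on Ras, rose by 0.36 (SE 0.11), Vwa8 by 0.34 (SE 0.09) and Dcaf5, a substrate receptor of a ubiquitin ligase, by 0.28 (SE 0.08). The remaining 6 of the 20 were low genes, under 1 CPM on average: Gm14131, Pcdhb2, Gm5799, Slc5a1, Kcnb2 and Clvs1. Gm14131, a pseudogene, had at most 3 counts in each B6 library, and its PWK level was at least 9.23-fold above that floor.

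**Figure D5:**
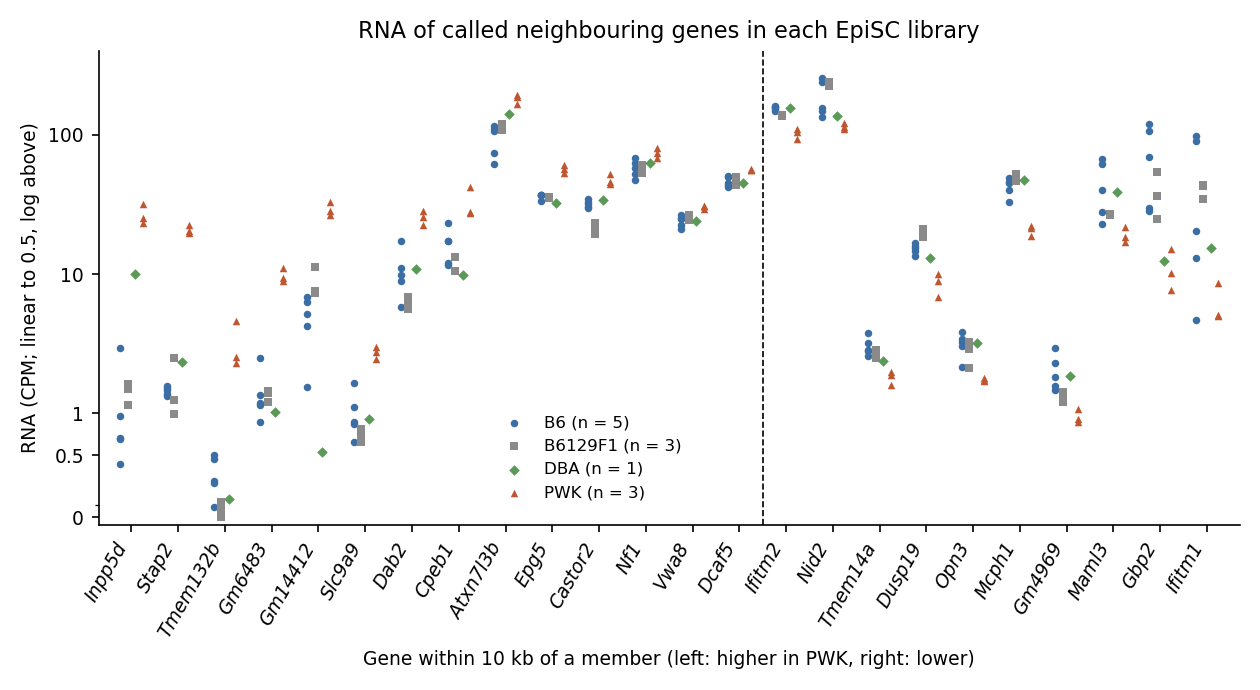
RNA in CPM (linear up to 0.5, logarithmic above) of 24 called neighbouring genes in each EpiSC library, 1 point per library, with 14 genes higher in PWK left of the dashed line and 10 lower to its right. The PWK triangles lie outside the range of the B6 circles for all but Ifitm1, though barely at Nf1 (lowest PWK 68.0 CPM, highest B6 67.8). The DBA value lies between both strains at Inpp5d and near B6 at Stap2.

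Of the 15 lower neighbours, 12 had no overlap between PWK and B6, a share likewise not counted over all called genes. A change of at least 2-fold was seen in 5, against 694 of all 2142 lower genes. Mcph1, a gene of chromosome condensation whose loss causes microcephaly, was the steadiest of these 5. It had 33.1 to 48.7 CPM in B6 with a median of 44.7, and 21.5, 22.0 and 18.6 in PWK, while B6129F1 had 46.3 to 52.3 and DBA 47.2. PWK alone was low, with a log2 difference of -1.03 (SE 0.13, adjusted p 0.000199 in edgeR). The member chr8:18777906-18777991 lies inside the gene with 23 and 14 PWK counts and 6 in DBA. The phosphatase gene Dusp19 fell by 0.83 (SE 0.14), with 13.4 to 16.6 CPM in B6, 6.83, 9.97 and 8.94 in PWK and 13.1 in DBA, and its member had 48 and 56 PWK counts.

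The member chr7:140965906-140965988, with 19 and 34 PWK counts and 0 in DBA, lies between Ifitm1 and Ifitm2, which encode membrane proteins that restrict virus entry. Ifitm2 had 149 to 161 CPM in B6, 93.4, 105 and 110 in PWK, and 156 in DBA (log2 difference -0.60, SE 0.06, adjusted p 6.38e-05 in edgeR). Ifitm1 had 4.68, 20.5, 13.1, 98.6 and 90.7 CPM in B6 51, 44, 2, 4 and 1, and 5.05, 8.56 and 5.03 in PWK, so both strains overlapped, and DBA had 15.3 (log2 difference -2.87, SE 0.93, adjusted p 0.0445 in edgeR). Its call was lost in 10 of 17 alternatives, among them the fits without B6 replicate 1 (-2.47) or 4 (-2.37). Gbp2, an interferon-induced GTPase, had 28.4 to 119 CPM in B6 and 7.68, 15 and 10.1 in PWK, with DBA inside the PWK range at 12.4 (log2 difference -2.69, SE 0.57, adjusted p 0.00627 in edgeR).

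The same B6 replicates 4 and 1 were also the highest for Maml3, a coactivator of Notch signalling, with 66.6 and 61.9 CPM. The other B6 libraries had 22.7 to 40.2 CPM and PWK 21.9, 18.5 and 17.1 (log2 difference -1.19, SE 0.33). In those replicates the sum of the 10 fibroblast genes was 2149 and 832 CPM, the 2 lowest of B6. The 8 endoderm genes summed to 280 and 364 CPM there, against 161 to 246 in the other B6 libraries. The 7 streak genes summed to 374 and 621 CPM, against 170 to 329. B6129F1 had fibroblast sums of 659 to 919, endoderm sums of 136 to 295 and streak sums of 140 to 272 CPM, with Maml3 at 26.5 to 27.0 CPM. The part of these in the results was not tested. Nid2, which encodes a basement membrane protein, had 134 to 257 CPM in B6 and 113, 110 and 122 in PWK (log2 difference -0.70, SE 0.21). Gm4969 fell by 1.09 (SE 0.30), Opn3, an opsin gene, by 0.84 (SE 0.25) and Tmem14a by 0.73 (SE 0.21). The other 5 were Ralgapa1, Ubr2, Gtpbp1, Ftsj3 and Mrpl22, with log2 differences from -0.48 to -0.24.

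DBA RNA lay in the B6 range, or beyond it on the side away from PWK, at most called neighbours. The same held for most of all called genes. The B6 range spans 5 libraries and the PWK range 3, so a value falls within the B6 range more easily. Of the 20 higher neighbours, DBA lay within or below the B6 range in 14 (70.0%), between both strains in 4 and within or above the PWK range in 2. Over all 1781 genes higher in PWK the DBA value lay within or below the B6 range in 63.7%. Of the 15 lower neighbours, DBA lay within or above the B6 range in 10 (66.7%), against 58.6% of all 2142 lower genes. Of 21 members next to higher genes 14 (66.7%) had at most 3 DBA counts and 0 were open, and of 14 next to lower genes 9 (64.3%) and 0. Next to genes that were not called, 91 of 110 members (82.7%) had at most 3 DBA counts and 1 was open. Of all members 2.79% were open in DBA and 76.6% had at most 3 counts. All 3 B6129F1 libraries stayed below the lowest PWK library in all 20 higher neighbours, against 92.4% of all higher genes.

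No gene of the lists for pluripotency, germ layers or feeder cells lay within 10 kb of a member. Within 100 kb there was 1, Dppa3, a gene of naive pluripotency and the germ line, 74755 bp from chr6:122551585-122551669, which was closed in DBA. Dppa3 was below the filter on low counts. The label of the cells was checked on 9 genes of primed pluripotency, such as Pou5f1, Fgf5 and Otx2: none was called between PWK and B6, and their summed level was 3358 to 5166 CPM in B6, 3993 to 4446 in PWK and 4227 in DBA. Of the other lists, Wnt3 was called higher in PWK (streak list) and Olig1 lower (neuroectoderm list). No gene of the endoderm list was called, yet its 8 genes had a median log2 difference of -1.09. Their spread within B6 was wide, as for Cer1 with 3.76 to 167 CPM in B6 and 17.0 to 43.8 in PWK. ATAC-seq totals were 4256551 to 9571127 counts, so 3 counts stand for 0.313 to 0.705 CPM in B6, and RNA totals were 24529054 to 29947841 counts. Reads on mitochondrial DNA were 7.07% to 13.5% of the ATAC-seq counts in B6, 4.22% and 5.60% in PWK and 8.52% in DBA.

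The count of members rested on the libraries and on the limits. It was 477 to 977 with 1 library left out, 629 without B6 4, 977 without PWK BioRep698 and 634 without the unnumbered PWK library. Every library had to pass the rule, so leaving one out could only keep or raise the count. Only the size of the rise is informative. Among neighbours, the count called lower was 4 to 6 when any 1 PWK RNA library was left out, and the count called higher was 34 without B6 51. Reads of PWK cells were placed on the B6 reference (mm10 is the build in the submitters' processing notes), and whether sequence differences, deletions or extra copies in PWK move reads into or out of these regions was not tested.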

How the data were processed

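Accessibility was measured by ATAC-seq and RNA by poly(A) RNA-seq, per the labels' protocols. The deposited tables hold raw counts per peak and per Ensembl gene, checked as whole numbers, and in each peak table all libraries share the same peaks, per the file headers. The submitters' processing notes name fastp, Bowtie2, MACS2, featureCounts, Salmon, DESeq2 and mm10, with no roles or settings. The EpiSC peak table has 17 more columns, from other studies, which were not used. PWK and B6129F1 columns without a label number were placed by strain only.

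CPM in peaks is the count divided by the column sum, and CPM of RNA uses TMM library sizes. Members were found with the rule given at the start. The members, gene lists, motifs and rules were chosen with earlier results of these data known. RNA was tested with edgeR 4.0.16 in R 4.3.3 (TMM, filterByExpr, robust quasi-likelihood fits, Benjamini-Hochberg) in 1 fit over B6, PWK and B6129F1, tested on simulated data first. DESeq2 1.42.0 was an alternative. Other alternatives were the count and CPM limits, the scaling, the filter, the window around members and each library left out. Spans and start sites are from RefSeq (GRCm38.p6, without start sites for chromosome 18). Of 29555 gene identifiers, 29270 had a symbol and 24543 an autosomal span. Whether peak starts count from 0 or 1 is not given in the sources used here, nor whether gene counting used strand, so genes with an antisense partner are uncertain.

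Named were the 10 members highest in PWK, the 5 highest in DBA, members at called neighbours (up to 15 rises and 10 falls with a mean log2 CPM of at least 0) and peaks at the limits. Other genes named were chosen after their values were seen. A motif search over all members was not run, as only promoter sequences were used here. Intervals and floors cover counting error only.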

Additional observations from a re-analysis of the deposited data

Results flagged for a closer look

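In 24 groups of 5 B6 libraries, 1 per named gene, 2 held a library far from the others, where chance flags about 1 in 20. Inpp5d had 2.93 CPM in B6 replicate 2 against 0.434 to 0.954 CPM in the other 4, still far below the PWK libraries. Epg5 had 33.6 CPM in B6 replicate 1 against 36.9 to 37.2 CPM in the other 4. Without each B6 library in turn, both genes stayed called higher in PWK.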

How the results depend on the processing

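The number of members was 32 and 67 with B6 limits of 0 and 1 count, 899 with 5 counts, 619 and 103 with PWK minimums of 1 and 3 CPM, and 477 to 977 with 1 library left out. The direction of each of these changes was fixed by the rule, as stricter limits remove peaks and looser limits or fewer libraries add them. The share open in DBA (2.79%) was 6.01% with a B6 limit of 5 counts, 8.08% and 0.557% at DBA minimums of 1 and 3 CPM, 23.4% when any count over 3 was taken as open, and 1.43% to 12.4% with 1 library left out. Neighbours called higher and lower were 52 and 52 within 50 kb, 88 and 88 within 100 kb, 13 and 9 where the gene overlaps the member, 7 and 9 for members of at least 3 CPM, 4 and 0 for members at 0 counts in B6, and 13 and 5 with a fold of at least 2. A fit with B6 and PWK alone gave 9 lower. With 1 RNA library left out, 15 to 34 neighbours were higher and 4 to 16 lower, and over all genes 1126 to 2428 were higher and 1317 to 2476 lower. A fold of at least 2 left 890 and 694 of all genes. The causes were not tested. Of the 35 calls among neighbours, 18 to 21 were shared when a PWK RNA library was left out, and all 35 with DESeq2. No named gene changed direction. Nf1 lost its call in 7 of 17 alternatives, Opn3, Tmem14a and Nid2 in 5 each, Maml3 and Dcaf5 in 3 each, Vwa8 and Gm4969 in 2 each and Cpeb1 in 1. No paired analysis was possible because PWK and B6 EpiSC libraries share no replicate number in the labels.

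Depth limits the members: the B6 limit of 3 counts is a level of 0.313 to 0.705 CPM, so weaker accessibility in B6 was not detectable, and the 1.5 CPM minimum rests on 8.55 and 12.6 counts in the PWK libraries. DBA has 1 library for each assay, so its values have no replicate check.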
